A study of Elaeis oleifera with 12 samples.

Results

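RNA from the abscission zone (AZ) at the base of pre-ripe (PR) fruit was compared between a non-shedding palm (NSd), whose fruit stay on the bunch, and a shedding palm (Sd) of the American oil palm Elaeis oleifera. The comparison set 6 of the 12 libraries of the series against each other, 3 PR NSd and 3 PR Sd. All loci with an RPKM of 1 or more in any of the libraries were tested, 20495 of 29040. The remaining libraries are 3 ripe NSd and 3 ripe Sd, taken from the same palms at the ripe stage. They gave the ripe difference that is set beside the PR one, and they also entered the rescaling and the spread in the model, so that the PR calls rest in part on them (2120 loci were called, and 1800 when only the 6 PR libraries were fitted).

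Both palms come from the same progeny and carry no transgene or treatment. Each group was sampled 3 times from 1 bunch of 1 palm, with about 50 pieces of AZ (some 3 g) in a sample. P-values thus reflect how samplings of 1 bunch vary, not how palms vary, and palm and phenotype cannot be told apart. Within a palm, stage and bunch cannot be told apart either. The values are RPKM, the reads at a locus scaled by transcript length and by the reads of the library. Here they were rescaled by 1 factor per library, and every RPKM given is rescaled unless stated. A locus was called where the limma adjusted p was under 0.01 and the log2 fold change (FC) of NSd over Sd lay above 1 or below -1.

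Fruit abscission is the separation of cells in the AZ at the fruit base. The paper describes this zone as less distinct in E. oleifera than in E. guineensis. Ethylene is its best-known trigger in ripening fruit, and enzymes that loosen or digest the wall, such as polygalacturonases and xyloglucan endotransglucosylase/hydrolases (XTH), act in the separating cells. Jasmonate, a hormone of wounding and defence, is known to promote organ shedding in Arabidopsis together with ethylene.

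The PR NSd libraries carried more rRNA, at 16.4%, 5.81% and 5.82% of summed RPKM, against 2.26%, 2.15% and 2.64% in PR Sd. Their rescaling factors were 0.723, 0.849 and 0.874, against 1.07 to 1.09 in PR Sd. The summed RPKM of non-rRNA loci, an alternative scaling, gave 0.871, 0.98 and 0.975, against 1.03 to 1.04 in PR Sd. Aligned reads ranged from 19090375 to 34004517 over the 12 libraries, so that 1 read on a transcript of 1500 bases was worth 0.0196 to 0.0349 RPKM as deposited. Pearson's r of log2(RPKM + 1) across loci was 0.964 to 0.984 within PR NSd, 0.978 to 0.991 within PR Sd and 0.903 to 0.932 between the 2 groups. Between PR NSd and ripe NSd of the same palm it was 0.897 to 0.938. Ripe NSd had r of 0.9405 to 0.9699 with PR Sd and of 0.942 to 0.971 with ripe Sd. The PR NSd libraries thus stood apart from those of their own palm at ripe as well as from PR Sd. PR Sd replicate 3 resembled ripe Sd replicate 1 (r = 0.980) as closely as PR Sd replicates 1 and 2 (r = 0.978 and 0.985).

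Of the 20495 loci, 2120 (10.3%) were called between the palms at PR. Of these, 1176 (5.74% of all tested) were higher in PR NSd and 944 (4.61%) were lower. The 3 PR NSd and the 3 PR Sd libraries did not overlap at 2118 of the 2120 called loci, beside 23.8% of all tested loci with every PR NSd library above every PR Sd library and 27.9% with every one below. Lack of overlap was also a condition for naming some of the loci below, so it adds nothing to their calls. A difference of at least 8-fold was found at 86 higher and 36 lower loci. Among called loci whose higher group averaged at least 20 RPKM, 708 were higher and 268 lower. The split depended on the scale. With RPKM as deposited, 689 loci were higher and 1953 lower, and the median log2 FC over all loci was -0.350 in place of -0.025. Scaled by the summed RPKM of non-rRNA loci, 804 loci were higher and 1534 lower, with a median log2 FC of -0.245. The part of the rRNA share in these numbers was not tested beyond these scalings. In bulk tissue, fewer cells of a type and less RNA per cell cannot be told apart.

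**Figure D1:**
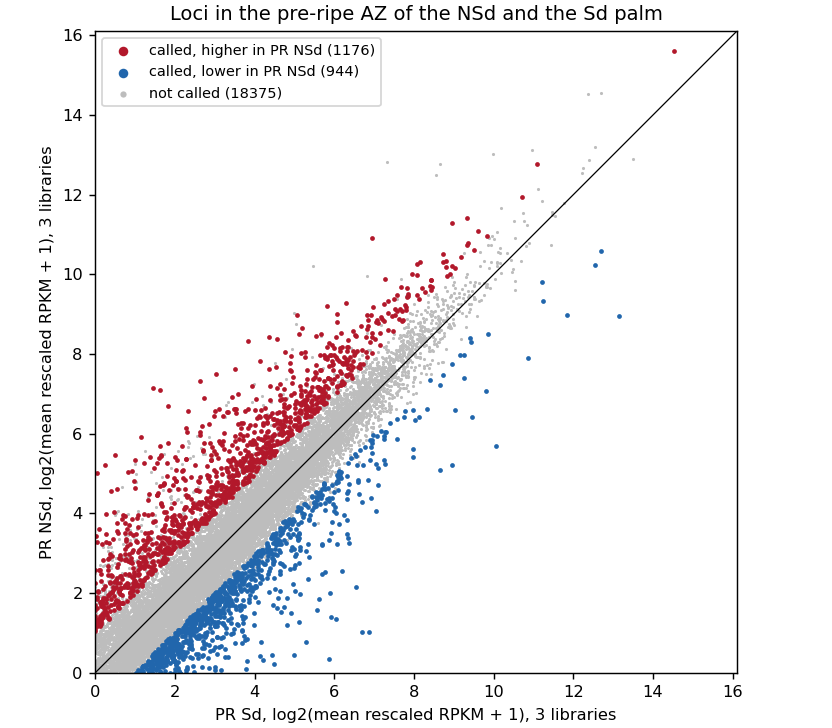
Mean rescaled RPKM of each tested locus in PR NSd (y axis) and PR Sd (x axis), both as log2(mean + 1) over 3 libraries, with the line of equal levels. The 1176 loci called higher in PR NSd (red) lie above the line and the 944 called lower (blue) below it.

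The groups of loci that were most often higher in PR NSd belonged to jasmonate and stress signaling. Of 16 tested TIFY/JAZ loci, whose proteins repress jasmonate responses and whose transcription jasmonate itself raises in Arabidopsis, 9 (56.2%) were higher and 1 was lower, with a median log2 FC of 1.43. With RPKM as deposited the counts were 7 and 3. The 9 were annotated as TIFY 10a, TIFY 9 and TIFY 5A. Their list summed to 2764 to 3479 RPKM in PR NSd libraries, against 859 to 1337 RPKM in PR Sd libraries. The most abundant locus, TIFY 10a LOC105058608, had 1186.4, 1571.5 and 1057.1 RPKM in PR NSd, against 181, 222 and 449.3 RPKM in PR Sd. All PR NSd libraries were above all PR Sd libraries, and PR Sd replicate 3 was the highest of its group (log2 FC 2.25 ± 0.38 SE, adjusted p = 0.000896). A second TIFY 10a locus, LOC105053062, had 133.5, 252.3 and 181 RPKM in PR NSd, against 22.58, 28.87 and 36.61 RPKM in PR Sd (log2 FC 2.62). The TIFY 10a locus LOC105056702 was higher by less (log2 FC 1.41), with 206.2 to 461.5 RPKM in PR NSd, against 113.7 to 131.5 RPKM in PR Sd, and was not called with RPKM as deposited (adjusted p = 0.0228), after quantile normalization (adjusted p = 0.0178) or with only the 6 PR libraries in the fit. The groups were apart at all of these loci, but reads of near-identical TIFY 10a copies may be split between loci by the mapping.

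TIFY 9 LOC105051062 showed the widest gap of the named TIFY loci, with 39.26, 50.71 and 31.97 RPKM in PR NSd, against 1.421, 1.377 and 3.368 RPKM in PR Sd (log2 FC 3.81 ± 0.33 SE, adjusted p = 1.07e-05). TIFY 3 LOC105041953 was not called, at 548.3, 331.5 and 307.3 RPKM in PR NSd, against 191.6, 264.4 and 279.1 RPKM in PR Sd (log2 FC 0.66, adjusted p = 0.036). The locus called lower was TIFY 4B LOC105042336, which lay under 0.5 RPKM in PR NSd and at 2.221 to 2.759 RPKM in PR Sd. The list thus did not move as a block.

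Enzymes of jasmonate synthesis were higher at 6 of 21 tested loci (28.6%) and lower at 1, with a median log2 FC of 0.31. With RPKM as deposited 4 were higher and 2 lower and the median was -0.08, so the direction of the list turned with the scale. Allene oxide synthase 1 LOC105060026, which commits fatty acid hydroperoxides to the jasmonate pathway, had 269.8, 270 and 186.8 RPKM in PR NSd, against 57.58, 57.2 and 50.78 RPKM in PR Sd (log2 FC 2.10 ± 0.25 SE, adjusted p = 9.1e-05). 12-oxophytodienoate reductase 7 LOC105053093, which acts later in the pathway, had 232.7, 262.5 and 227.2 RPKM in PR NSd, against 96.1, 106.5 and 134.6 RPKM in PR Sd (log2 FC 1.10, and 0.70 to 1.00 under the 4 alternatives that ended its call, namely RPKM as deposited, the non-rRNA sum, quantile normalization and leaving out PR Sd replicate 1). Neither locus overlapped between the groups. Allene oxide cyclase LOC105041662, the step between them, was not called, at 159.4, 194.3 and 178.8 RPKM in PR NSd, against 98.39, 130.6 and 192.5 RPKM in PR Sd, where replicate 3 lay above 2 of the 3 NSd libraries. The lower locus was linoleate 13S-lipoxygenase LOC105039460, annotated as an enzyme that oxidizes the fatty acid precursor, with 0.1422, 0.3281 and 0.2588 RPKM in PR NSd, against 18.11, 19.5 and 14.61 RPKM in PR Sd (log2 FC -3.88). It was near absent in PR NSd, but not in the same palm at the ripe stage (5.035 to 5.653 RPKM).

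Transcription factor families differed in direction. WRKY factors, which act mainly in defence, were higher at 21 of 71 tested loci (29.6%) and lower at 4 (16 and 7 with RPKM as deposited). WRKY76 LOC105060191 had 367.3, 566.1 and 396.3 RPKM in PR NSd, against 44.62, 52.2 and 100.5 RPKM in PR Sd (log2 FC 2.80 ± 0.28 SE, adjusted p = 3.42e-05). WRKY24 LOC109505826 had 34.75, 53.07 and 24.52 RPKM in PR NSd, against 3.397, 2.481 and 1.571 RPKM in PR Sd (log2 FC 3.43). Both loci were apart between the groups by several fold. Protein WRKY1 LOC105055976 went the other way, with 24.87, 20.73 and 25.51 RPKM in PR NSd, against 53.73, 57.97 and 47.11 RPKM in PR Sd (log2 FC -1.13).

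NAC factors were higher at 13 of 67 loci (19.4%) and lower at 1 (9 and 4 with RPKM as deposited). NAC domain-containing protein 48 LOC105036710 had 66.4, 68.84 and 53.65 RPKM in PR NSd, against 11.09, 13.37 and 9.979 RPKM in PR Sd (log2 FC 2.36). The lower one, NAC domain-containing protein 104 LOC105038484, had 5.306, 6.346 and 13.93 RPKM in PR NSd, against 106.9, 68.09 and 70.98 RPKM in PR Sd (log2 FC -3.20 ± 0.34 SE, adjusted p = 4.24e-05). Its Arabidopsis namesake is known from xylem development.

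ERF and DREB factors, a family that includes the last step of ethylene signaling but also many stress regulators, were higher at 19 of 102 loci (18.6%) and lower at 5. With RPKM as deposited the counts were 13 higher and 11 lower. ERF019 LOC105036338 had 19.15, 61.03 and 50.4 RPKM in PR NSd, against 0.06069, 0.4766 and 0.7036 RPKM in PR Sd, where it was near absent (log2 FC 4.85 ± 0.51 SE, adjusted p = 4.12e-05). ERF017 LOC105036666 had 115.1, 159.6 and 71.02 RPKM in PR NSd, against 17.87, 15.07 and 12.8 RPKM in PR Sd (log2 FC 2.78). MYB factors were divided, with 11 higher and 9 lower of 89 and a median log2 FC of -0.16 (7 higher and 18 lower with RPKM as deposited). Of 91 bHLH factors 15 were higher and 6 lower (13 and 11 with RPKM as deposited). MYB4 LOC105033428, whose Arabidopsis namesake represses phenylpropanoid synthesis, had 301.2, 374.6 and 221.1 RPKM in PR NSd, against 64.6, 59.09 and 57.09 RPKM in PR Sd (log2 FC 2.26). At ERF019, ERF017 and MYB4 the lowest NSd library exceeded the highest Sd library.

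Calcium sensors of the calmodulin type were higher at 20 of 75 loci (26.7%) and lower at 2 (12 and 3 with RPKM as deposited). CML19 LOC105037682 had 214.6, 234.1 and 162.4 RPKM in PR NSd, against 22.81, 22.01 and 21.31 RPKM in PR Sd (log2 FC 3.14 ± 0.29 SE, adjusted p = 1.66e-05). Calcium-binding protein CP1 LOC105057333 had 265.8, 293 and 229.9 RPKM in PR NSd, against 32.64, 30.65 and 48.73 RPKM in PR Sd (log2 FC 2.81). The list as a whole summed to 10647 to 14910 RPKM in PR NSd libraries, against 5293 to 6487 RPKM in PR Sd libraries. PUB23 LOC105037988, a ubiquitin ligase that dampens immune signaling in Arabidopsis, had 83.22, 132.2 and 94.72 RPKM in PR NSd, against 0.826, 1.375 and 5.465 RPKM in PR Sd (log2 FC 5.08).

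Heat shock proteins and factors, chaperones that hold unfolding proteins and the regulators that induce them, were higher at 25 of 81 loci (30.9%) and lower at 0, with 45 higher and 6 lower at an unadjusted p under 0.05. A chloroplastic small heat shock protein, LOC105042707, had 17.57, 14.18 and 38.08 RPKM in PR NSd, against 0.3953, 0.4657 and 0.5346 RPKM in PR Sd (log2 FC 3.93 ± 0.29 SE, adjusted p = 4.29e-06). Heat shock protein 83 LOC105054742 had 18.31, 21.71 and 28.75 RPKM in PR NSd, against 2.725, 2.472 and 2.575 RPKM in PR Sd (log2 FC 2.71). Multiprotein-bridging factor 1c LOC105037803, a coactivator of the heat response in Arabidopsis, had 29.6, 28.31 and 60 RPKM in PR NSd, against 0.4426, 1.454 and 1.057 RPKM in PR Sd (log2 FC 4.29). PR NSd replicate 3 was the highest library at all 3 loci.

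Defence proteins moved in both directions, with 19 of 98 chitinases, glucanases and pathogenesis-related proteins higher (19.4%) and 11 lower (11.2%). With RPKM as deposited they numbered 17 higher and 16 lower. The antifungal protein PR-4 LOC105042178 had 1880.2, 1759.2 and 2114.3 RPKM in PR NSd, against 203.3, 83.42 and 78.74 RPKM in PR Sd (log2 FC 4.11 ± 0.68 SE, adjusted p = 0.000807). PRB1-3 LOC105060073, another secreted pathogenesis-related protein, had 199, 61.12 and 164 RPKM in PR NSd, against 1.482, 1.164 and 2.509 RPKM in PR Sd (log2 FC 5.58 ± 1.01 SE, adjusted p = 0.00138). Both also varied widely at the ripe stage, from 315.8 to 3084.9 RPKM for PR-4 over the 3 ripe NSd libraries.

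A pair of chitinase loci, for enzymes that cut fungal walls, moved together. Chitinase 2-like LOC105046567 had 56.42, 191 and 232 RPKM in PR NSd, against 3.855, 6.856 and 4.91 RPKM in PR Sd (log2 FC 4.49). Chitinase 2 LOC105046571 had 41.46, 123.1 and 119.5 RPKM in PR NSd, against 2.408, 5.73 and 4.012 RPKM in PR Sd (log2 FC 4.14), and as similar copies the pair may share reads. The chitin elicitor-binding protein LOC105061543, a receptor for chitin fragments in rice, had 81.47, 96.7 and 81.27 RPKM in PR NSd, against 7.626, 6.666 and 10.62 RPKM in PR Sd (log2 FC 3.25 ± 0.14 SE, adjusted p = 1.32e-07). In contrast, glucan endo-1,3-beta-glucosidase LOC105045344, a callose-degrading type of enzyme and one of the most abundant transcripts, was lower, at 956.3, 752.4 and 981.6 RPKM in PR NSd, against 2733.3, 2216.8 and 2120.5 RPKM in PR Sd (log2 FC -1.39).

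Loci known from stress responses were among the higher ones with a large gain in RPKM. A cysteine-rich and transmembrane domain-containing protein, LOC105056320, had 7806.4, 7317.8 and 5836.7 RPKM in PR NSd, against 1721.3, 1938.9 and 2853.9 RPKM in PR Sd (log2 FC 1.71). Abscisic stress-ripening protein 5 LOC105038353 had 3144.9, 2365.4 and 1952.5 RPKM in PR NSd, against 512.2, 374.5 and 606.2 RPKM in PR Sd (log2 FC 2.32). Dehydrin DHN1 LOC105042628, a protein of drying tissues, had 1228.9, 1396.3 and 1189 RPKM in PR NSd, against 331.2, 397 and 551.9 RPKM in PR Sd (log2 FC 1.60). Loci of other kinds also had large gains, with a mean RPKM higher in PR NSd by 2098.9 for non-specific lipid-transfer protein 2 LOC105048762, by 1397.8 for the translation factor SUI1 homolog LOC105046896 and by 1107.2 for glycine-rich protein A3 LOC105057020. All of these loci were apart between the groups.

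Cytokinin loci were higher at 8 of 40 (20%) and lower at 2, but at 4 and 4 with RPKM as deposited. An enzyme annotated as cytokinin riboside 5'-monophosphate phosphoribohydrolase, LOC105044305, which releases active cytokinin, had 52.18, 41.85 and 38.17 RPKM in PR NSd, against 7.468, 8.255 and 5.686 RPKM in PR Sd (log2 FC 2.47). The response regulator ORR22 LOC105050710 had 44.1, 59.08 and 63.2 RPKM in PR NSd, against 6.219, 8.16 and 16.74 RPKM in PR Sd (log2 FC 2.40). Neither overlapped between the groups.

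**Figure D2:**
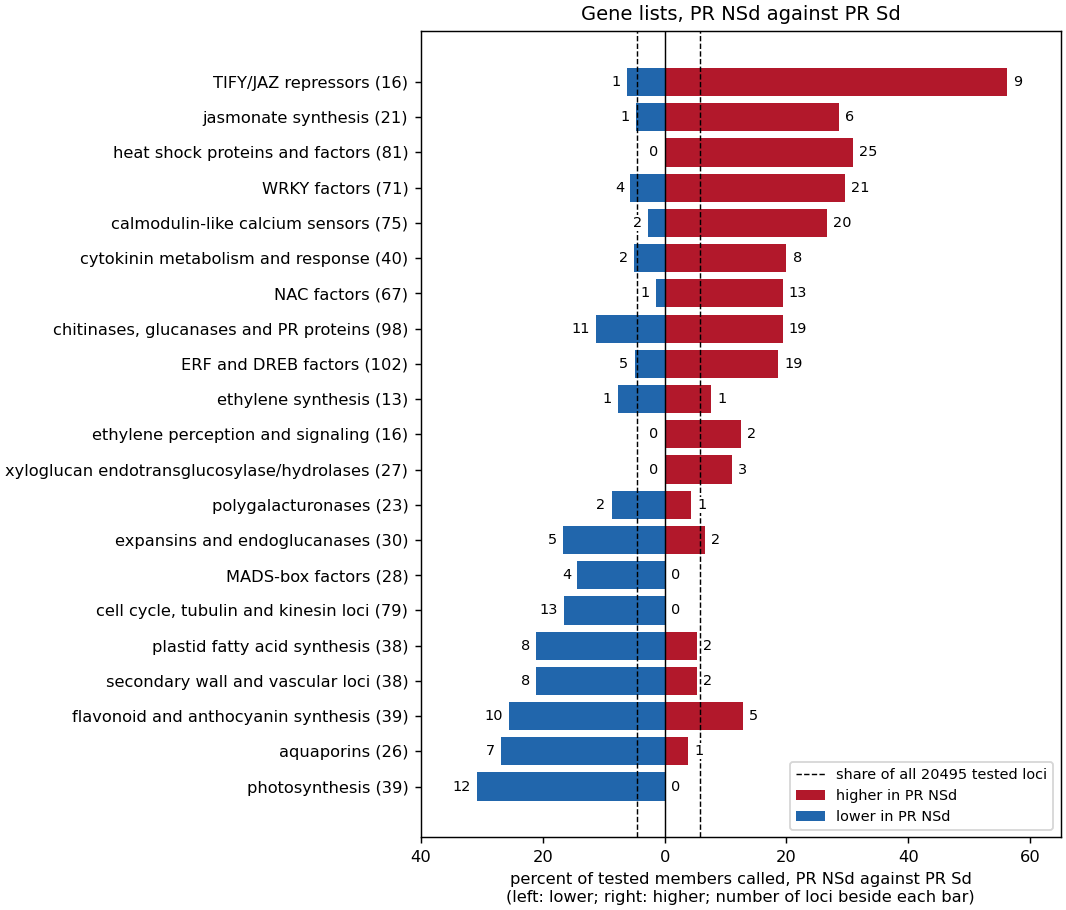
Percent of the tested members of 21 gene lists called higher (right, red) or lower (left, blue) in PR NSd than in PR Sd, with the number of called loci beside each bar, the number tested in parentheses, and dashed lines at the shares over all tested loci (5.74% higher, 4.61% lower). TIFY/JAZ repressors reach 56.2% higher, and photosynthesis loci reach 30.8% lower.

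Ethylene loci showed no common direction. Of 13 tested loci for ethylene synthesis, 1 was higher and 1 lower. The higher one, an ACC synthase-like locus LOC105043536, was low in both palms, at 0.7737, 2.111 and 1.074 RPKM in PR NSd, against 0.01451, 0.02279 and 0.2018 RPKM in PR Sd (log2 FC 1.07). It was not called without PR NSd replicate 2 (0.83), with RPKM as deposited (0.91), by the non-rRNA sum (0.95) or with only the 6 PR libraries in the fit (adjusted p = 0.0119). ACC oxidase makes ethylene from ACC, and its loci differed from one another. LOC105061033 was lower, with 101, 93.04 and 91.53 RPKM in PR NSd, against 595, 534.8 and 431 RPKM in PR Sd (log2 FC -2.43 ± 0.47 SE, adjusted p = 0.00208). LOC105035107 had 129.7, 335.3 and 385.6 RPKM in PR NSd, against 59.91, 60.34 and 134.5 RPKM in PR Sd, where replicate 3 exceeded the lowest NSd library, and was not called (log2 FC 1.69 ± 0.50 SE, adjusted p = 0.0195). Without PR NSd replicate 1 the same locus was called (log2 FC 2.18, adjusted p = 0.00551). ACC oxidase 3 LOC105039092, the most abundant, had 1051.9, 1021.3 and 1365.2 RPKM in PR NSd, against 967.2, 938.4 and 908.3 RPKM in PR Sd, and was not called (log2 FC 0.28 ± 0.16 SE, adjusted p = 0.176).

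Of 16 loci for ethylene perception and signaling, 2 were higher and 0 lower, with 4 higher and 3 lower at an unadjusted p under 0.05. Both encode EIN3-binding F-box protein 1, which marks the central ethylene factor EIN3 for degradation and is itself induced by ethylene in Arabidopsis. LOC105033977 had 68.6, 76.34 and 71.03 RPKM in PR NSd, against 15.67, 18.78 and 42.82 RPKM in PR Sd (log2 FC 1.58 ± 0.27 SE, adjusted p = 0.000843). LOC105033979 had nearly the same values (log2 FC 1.65), and as close copies the 2 loci may share reads and are not independent. Fitted on the 6 PR libraries alone, neither was called (adjusted p = 0.0137 and 0.0121). The EIN3-like loci LOC105061340 and LOC105061364 were not called, with log2 FC of -0.01 and -0.32 (adjusted p = 0.974 and 0.0178).

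Wall-loosening and wall-digesting enzymes were divided. Of 27 XTH loci, 3 were higher and 0 lower, with 11 higher and 2 lower at an unadjusted p under 0.05, but 2 were higher and 1 lower with RPKM as deposited. XTH protein 1 LOC105039158 had 32.13, 27.84 and 49.04 RPKM in PR NSd, against 0.2069, 0.325 and 0 RPKM in PR Sd (log2 FC 4.96 ± 0.60 SE, adjusted p = 0.000106). XTH protein 22 LOC105050824 had 40.66, 54.18 and 26.03 RPKM in PR NSd, against 4.977, 4.522 and 1.961 RPKM in PR Sd (log2 FC 3.10). The most abundant XTH loci, a pair annotated as XTH protein 23, varied widely within groups and were not called. LOC105049227 had 1838.4, 1810.9 and 874.9 RPKM in PR NSd, against 1495.9, 652.6 and 287.3 RPKM in PR Sd (log2 FC 1.12 ± 0.57 SE, adjusted p = 0.136). At the ripe stage the same locus was called higher in NSd (log2 FC 3.93), and its palm difference at PR minus that at ripe was not called (log2 value -2.80, adjusted p = 0.0231).

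Polygalacturonases, which digest pectin between separating cells, were higher at 1 of 23 loci and lower at 2. PG4, a polygalacturonase, had 58.22, 63.93 and 96.51 RPKM in PR NSd, against 57.21, 49.52 and 26.92 RPKM in PR Sd, and was not called (log2 FC 0.73 ± 0.43 SE, adjusted p = 0.201). The locus that was higher, LOC105039892, had 16.12, 18.62 and 18.32 RPKM in PR NSd, against 3.273, 3.652 and 7.806 RPKM in PR Sd (log2 FC 1.74). Of the 2 that were lower, LOC105059528 had 13.48, 17.32 and 19.55 RPKM in PR NSd, against 41.59, 50.26 and 40.31 RPKM in PR Sd (log2 FC -1.35), and LOC105043311 was lower by 2.01 on the log2 scale. Over all 53 polygalacturonase loci the sum was 220 to 287.2 RPKM in PR NSd libraries, against 171.1 to 247.7 RPKM in PR Sd libraries, and the groups overlapped.

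Expansins and endoglucanases, which loosen or cut the cellulose-hemicellulose network, were lower at 5 of 30 loci (16.7%) and higher at 2 (8 and 2 with RPKM as deposited). Expansin-B5 LOC105043691 had 97.17, 69.99 and 84.84 RPKM in PR NSd, against 701.5, 775.2 and 626.7 RPKM in PR Sd (log2 FC -3.05 ± 0.35 SE, adjusted p = 6.8e-05). Endoglucanase 10 LOC105035228 was near absent in PR NSd, at 0.1754, 0.3371 and 0.1718 RPKM, against 14.6, 12.54 and 11.92 RPKM in PR Sd (log2 FC -3.51). Neither locus overlapped between the groups.

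Structural proteins of the wall were among the loci with the lowest fold changes. Glycine-rich cell wall structural protein 1 LOC105054461 had 0.6684, 1.649 and 0.8185 RPKM in PR NSd, against 101.1, 96.7 and 108.4 RPKM in PR Sd (log2 FC -5.68 ± 0.18 SE, adjusted p = 2.95e-08). Early nodulin-75 LOC105059233, a proline-rich wall protein and among the most abundant transcripts of the Sd palm, had 321.5, 523.6 and 631.4 RPKM in PR NSd, against 9996.9, 8270.1 and 8857.2 RPKM in PR Sd (log2 FC -4.25 ± 0.23 SE, adjusted p = 5.76e-07). A second locus annotated early nodulin-75, LOC105059232, was lower by a similar fold (log2 FC -4.38), and reads may be shared between these copies. Another glycine-rich wall protein, LOC105037859, had 265.9, 233.5 and 216.4 RPKM in PR NSd, against 1494.6, 1828.9 and 2231.3 RPKM in PR Sd (log2 FC -2.94). Each of these 4 wall protein loci was also lower in the NSd palm at the ripe stage, with log2 FC between -1.81 and -2.30.

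Loci of the secondary wall and vasculature were lower at 8 of 38 (21.1%) and higher at 2, and at 5 lower and 2 higher without PR NSd replicate 1. A cellulose synthase A locus, LOC105056610, annotated as catalytic subunit 8 of the enzyme that makes cellulose, had 6.613, 7.663 and 7.842 RPKM in PR NSd, against 39.28, 40.62 and 34.9 RPKM in PR Sd (log2 FC -2.23 ± 0.13 SE, adjusted p = 1.06e-06). Fasciclin-like arabinogalactan protein 2 LOC105060306 had 0.5022, 0.6931 and 0.8705 RPKM in PR NSd, against 10.62, 9.695 and 15.4 RPKM in PR Sd (log2 FC -2.91). Flavonoid and anthocyanin synthesis was lower at 10 of 39 loci (25.6%) and higher at 5, with chalcone-flavonone isomerase LOC105035984 at 36.52, 35.81 and 38.87 RPKM in PR NSd, against 154.1, 146.1 and 164.7 RPKM in PR Sd (log2 FC -2.03).

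Photosynthesis loci were lower at 12 of 39 (30.8%) and higher at 0, with 21 lower and 0 higher where the unadjusted p was under 0.05 and a median log2 FC of -0.66. One locus dominated their level. Photosystem I subunit IV A LOC105053650 had 547.2, 529.1 and 443.8 RPKM in PR NSd, against 3490.3, 3781.1 and 3759.4 RPKM in PR Sd (log2 FC -2.86 ± 0.19 SE, adjusted p = 1.92e-06). Without it the list summed to 180.3 to 240.1 RPKM in PR NSd libraries, against 264.1 to 326 RPKM in PR Sd libraries. Chlorophyll a-b binding protein CP29.2 LOC105046981, a light-harvesting protein, had 3.514, 3.791 and 4.589 RPKM in PR NSd, against 13.66, 13.39 and 9.245 RPKM in PR Sd (log2 FC -1.39). Levels of these green-tissue loci were thus low in both palms apart from that subunit.

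Aquaporins, channels that pass water and small solutes, were lower at 7 of 26 loci (26.9%) and higher at 1 (11 and 1 with RPKM as deposited). Other transporters had no common direction, with 12 higher and 12 lower of 88 loci for nitrate, peptide, ammonium and amino acid transport and 10 higher and 9 lower of 101 ABC and WAT1-related loci. The plasma membrane aquaporin PIP1-2 LOC105059047 had 18.36, 15.04 and 22.39 RPKM in PR NSd, against 95.33, 110.9 and 99.94 RPKM in PR Sd (log2 FC -2.41 ± 0.19 SE, adjusted p = 5.87e-06). NIP6-1 LOC105038152, a boric acid channel in Arabidopsis, had 8.38, 11.17 and 11.11 RPKM in PR NSd, against 87.4, 92.71 and 57.94 RPKM in PR Sd (log2 FC -2.82). A boron exporter-type locus, boron transporter 2 LOC105040010, had 1.741, 1.757 and 2.452 RPKM in PR NSd, against 57.79, 45.42 and 36.16 RPKM in PR Sd (log2 FC -3.98 ± 0.16 SE, adjusted p = 6.25e-08). Both boron-related loci were called lower.

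Sugar loci were mixed, at 9 higher and 12 lower of 94 (7 and 21 with RPKM as deposited). The loci described here are all lower ones, picked by the naming rules, and do not stand for the list. Alpha-glucan phosphorylase was picked for a called interaction with opposite direction at ripe. A cell wall invertase, beta-fructofuranosidase LOC105038262, which splits sucrose outside the cell, had 1.352, 1.806 and 1.698 RPKM in PR NSd, against 80.95, 55.97 and 42.67 RPKM in PR Sd (log2 FC -4.49 ± 0.51 SE, adjusted p = 6.59e-05). The sugar exporter SWEET13 LOC105061412 had 0, 0.08558 and 0.04673 RPKM in PR NSd, against 9.196, 5.509 and 8.822 RPKM in PR Sd (log2 FC -3.06). The starch enzyme alpha-glucan phosphorylase LOC105046284 had 7.838, 8.378 and 8.745 RPKM in PR NSd, against 69.6, 68.27 and 60.88 RPKM in PR Sd (log2 FC -2.85).

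Plastid fatty acid synthesis, the first stage of oil making, was lower at 8 of 38 loci (21.1%) and higher at 2 (15 and 1 with RPKM as deposited). Stearoyl-ACP desaturase LOC105049670 had 44.24, 36.01 and 44.95 RPKM in PR NSd, against 283, 261 and 205.7 RPKM in PR Sd (log2 FC -2.55 ± 0.34 SE, adjusted p = 0.000188). Acyl carrier protein 2 LOC105032101 had 8.28, 5.147 and 7.187 RPKM in PR NSd, against 35.5, 32.09 and 28.5 RPKM in PR Sd (log2 FC -2.08). The oil body protein oleosin LOC105054330 had 3.035, 3.001 and 4.192 RPKM in PR NSd, against 88.9, 90.86 and 98.13 RPKM in PR Sd (log2 FC -4.42). In contrast, diacylglycerol O-acyltransferase 3 LOC105035148, an enzyme of oil assembly, was higher, at 198.8, 211.6 and 165.6 RPKM in PR NSd, against 45.4, 50.11 and 50.79 RPKM in PR Sd (log2 FC 1.95).

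Cell cycle, tubulin and kinesin loci were lower at 13 of 79 (16.5%) and higher at 0 (21 and 0 with RPKM as deposited). Before adjustment, p was under 0.05 at 41 lower and 3 higher ones. A tubulin alpha chain, LOC105060088, had 35.79, 36.45 and 37.2 RPKM in PR NSd, against 131.6, 131.3 and 134.1 RPKM in PR Sd (log2 FC -1.83 ± 0.15 SE, adjusted p = 6.43e-06). A second one, LOC105061039, had 2.921, 2.005 and 3.815 RPKM in PR NSd, against 37, 35.84 and 30.43 RPKM in PR Sd (log2 FC -3.20). The 3 libraries of each group lay close together at both tubulin loci.

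MADS-box factors, many of which set floral and fruit organ identity, were lower at 4 of 28 loci and higher at 0 (8 and 0 with RPKM as deposited), with 12 lower and 1 higher where the unadjusted p was under 0.05. MADS32 LOC105041020 had 0, 0.2912 and 0.7632 RPKM in PR NSd, against 20.8, 17.71 and 23.39 RPKM in PR Sd (log2 FC -4.03 ± 0.23 SE, adjusted p = 8.5e-07). MADS21 LOC105038563 had 6.033, 6.781 and 6.808 RPKM in PR NSd, against 46.15, 36.54 and 38.26 RPKM in PR Sd (log2 FC -2.45). Homeobox, KNOX and BEL1 factors, among them regulators of AZ development in other species, were lower at 7 of 77 (9.09%) and higher at 1, with 42 lower and 8 higher where the unadjusted p was under 0.05. The number lower was 21 with RPKM as deposited and 16 when scaled by the non-rRNA sum. Homeobox-leucine zipper protein HOX21 LOC105048577 had 2.37, 0.9616 and 2.819 RPKM in PR NSd, against 12.67, 12 and 9.89 RPKM in PR Sd (log2 FC -2.09). WUSCHEL-related homeobox 8 LOC105055233 had 30.01, 24.35 and 30.98 RPKM in PR NSd, against 76.27, 70.04 and 60.06 RPKM in PR Sd (log2 FC -1.25).

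Further loci were lower in PR NSd, the first pair of them abundant. Metallothionein-like protein type 2 LOC105056944, a metal-binding protein, had 1280.2, 1198.8 and 1163.4 RPKM in PR NSd, against 5927, 6206.7 and 5721.3 RPKM in PR Sd (log2 FC -2.29 ± 0.15 SE, adjusted p = 2.22e-06). A mannose/glucose-specific lectin, LOC105053474, had 1562.4, 1705.9 and 1311.7 RPKM in PR NSd, against 7007.3, 6418.4 and 6426.2 RPKM in PR Sd (log2 FC -2.12). The kinase CIPK1 LOC105040098, a partner of calcium sensors, had 2.398, 2.121 and 3.39 RPKM in PR NSd, against 47.56, 50.28 and 46.66 RPKM in PR Sd (log2 FC -3.77). These loci did not overlap between the groups.

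**Figure D3:**
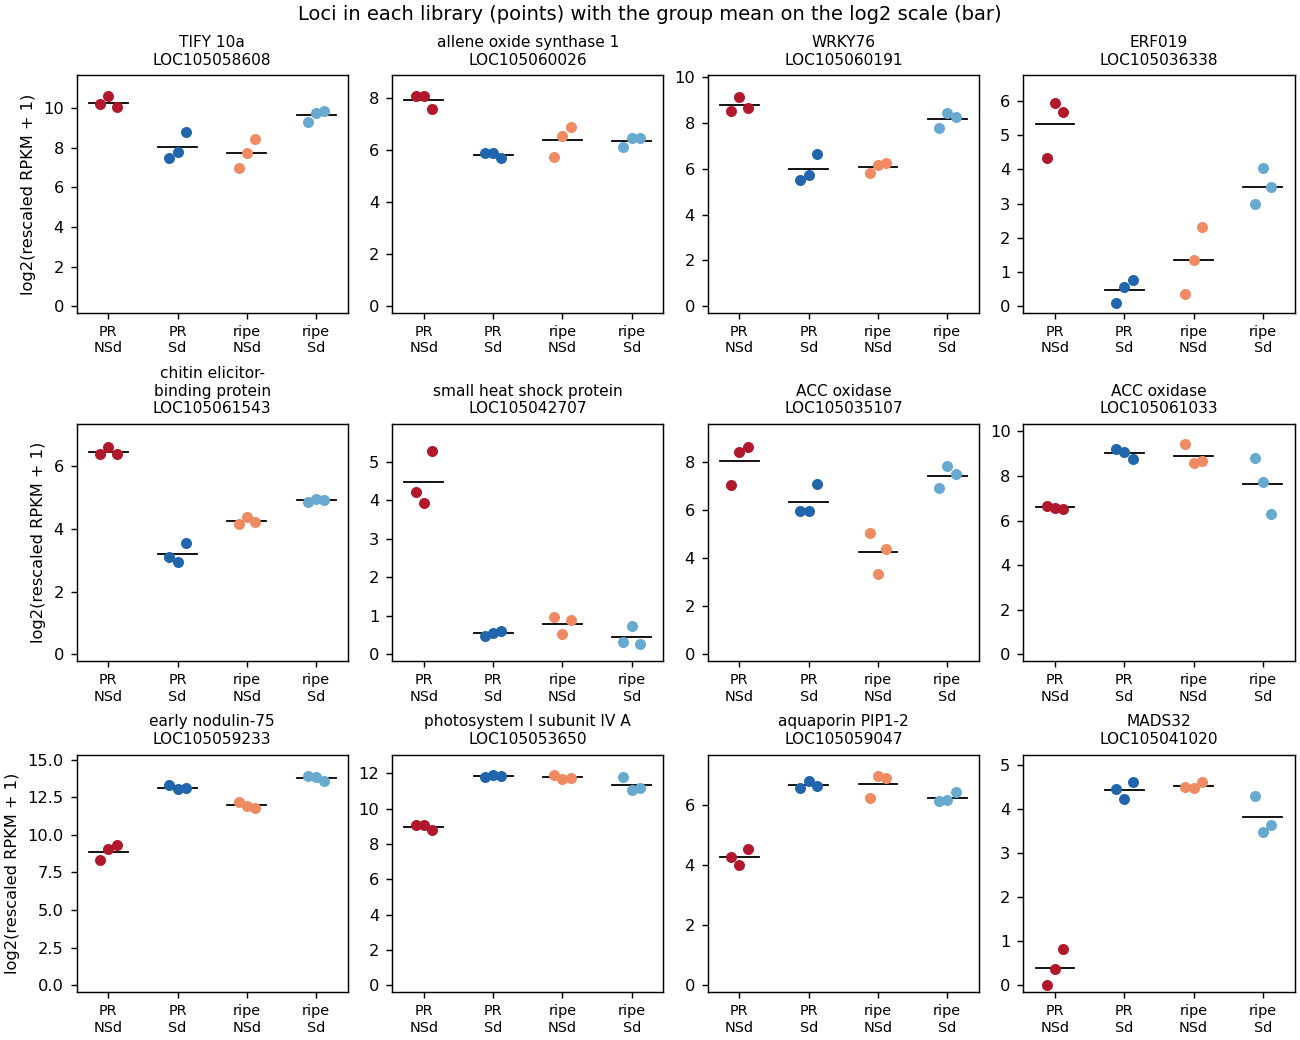
Level of 12 named loci in every library as log2(rescaled RPKM + 1), with groups from left to right PR NSd, PR Sd, ripe NSd and ripe Sd, 1 point per library and a bar at the group mean on the log2 scale. The PR NSd points stand above all other groups at the chitin elicitor-binding protein and the small heat shock protein, and below them at early nodulin-75, photosystem I subunit IV A, PIP1-2 and MADS32.

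The machinery of protein synthesis and breakdown held few calls. Of 265 cytosolic ribosomal protein loci, 4 were higher (1.51%) and 0 lower. At an unadjusted p under 0.05, 180 were higher and 5 lower, with a median log2 FC of 0.34 that was -0.06 with RPKM as deposited, so that their direction turned with the scale. Of 69 proteasome subunits, 0 were called, with 14 higher and 9 lower at an unadjusted p under 0.05.

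Markers of tissues that a fruit base can hold did not all move alike between the groups. The sum over all 55 photosynthesis loci was 649.7 to 788.2 RPKM in PR NSd, against 3819 to 4104 RPKM in PR Sd. Most of it came from photosystem I subunit IV A. Without that locus the tested ones summed to 180.3 to 240.1 RPKM in PR NSd, against 264.1 to 326 RPKM in PR Sd. For 79 secondary wall and vascular loci the sum was 138.2 to 171.1 RPKM in PR NSd, against 191.2 to 221.9 RPKM in PR Sd, and 25 of them were at 0 in all PR NSd libraries, against 16 in all PR Sd libraries. Counts at 0 depend on depth, which was 19090375 to 22609713 aligned reads in PR NSd and 21253570 to 34004517 in PR Sd. The 52 loci of plastid fatty acid synthesis, a marker of mesocarp, summed to 2747 to 3605 RPKM in PR NSd and overlapped with 3028 to 3102 RPKM in PR Sd. The 19 carotenoid loci had 381.5 to 543.9 RPKM in PR NSd, against 293.2 to 307.8 RPKM in PR Sd, and the 55 LEA, dehydrin and seed storage loci had 12670 to 17200 RPKM in PR NSd, against 8598 to 11380 RPKM in PR Sd. In the carotenoid sum, 1 locus alone held 164 to 310.4 RPKM in PR NSd, against 44.51 to 67.89 RPKM in PR Sd. The median log2 FC of the 14 tested carotenoid loci was -0.14. Oil body and oil assembly loci, 29 in number, had 362.3 to 370.1 RPKM in PR NSd, against 309.4 to 320.9 RPKM in PR Sd. Diacylglycerol O-acyltransferase 3 alone held 165.6 to 211.6 RPKM of it in PR NSd, against 45.4 to 50.79 RPKM in PR Sd. Of the 19 tested loci of this list 1 was higher and 3 were lower, with a median log2 FC of -0.31. The 105 lignin and phenylpropanoid loci overlapped, at 1123 to 1261 RPKM in PR NSd and 1217 to 1246 RPKM in PR Sd. The part of these markers in the results was not tested.

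Most loci called at PR were not called at the ripe stage. Between the ripe palms 462 loci were called (2.25%), 181 higher in NSd (0.883%) and 281 lower (1.37%). Of the 1176 loci higher at PR, 1054 were not called at ripe, and of the 944 lower at PR, 867 were not called at ripe. Called in the same direction at both stages were 104 loci, which is 4.91% of the PR calls and 22.5% of the ripe calls. Leaving out 1 library gave 58 to 126 such loci, the lowest without ripe Sd replicate 3, and 62 without ripe NSd replicate 2 or ripe Sd replicate 2. Called in opposite directions were 95 loci, of which 79 were higher in NSd at PR and lower at ripe. Pearson's r of the palm differences across the 20495 loci was -0.005, and loci are not independent replicates.

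The test of the difference between the stages (interaction in limma) called 2286 loci (11.2%), 1266 with a more positive palm difference at PR (6.18%) and 1020 with a more negative one (4.98%). Each stage of each palm was 1 bunch, so this test cannot tell a difference between stages from one between bunches. The paper estimated ripeness from bunch position and fruit colour. With RPKM as deposited the split was 835 and 1884. Of the 2120 loci called at PR, 1363 (64.3%) were among them. The interaction contains the PR difference, so this share is not independent of the PR calls. All 3 PR NSd libraries lay above the other 9 libraries at 808 of the 1176 higher loci (68.7%, beside 11.3% of all tested loci) and below them at 735 of the 944 lower loci (77.9%, beside 13.7%). The 9 include the 3 PR Sd libraries, against which these loci were called. Part of each share was thus set by the choice, and the shares over all loci are not a like baseline. All PR NSd libraries were above all PR Sd libraries at 23.8% of all tested loci, and below at 27.9%.

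The TIFY/JAZ list had 0 loci called higher and 4 called lower at ripe, with a median log2 FC of -0.39, and the interaction was called as positive at 8 of its loci and as negative at 2. TIFY 10a LOC105058608, whose PR values are given above, had 124.7, 214.7 and 348.8 RPKM in ripe NSd, against 640.5, 868.6 and 933 RPKM in ripe Sd (log2 FC -1.93, adjusted p = 0.00883). WRKY76 LOC105060191 had 54.46, 69.69 and 74.89 RPKM in ripe NSd, against 220.6, 341.9 and 302.4 RPKM in ripe Sd (log2 FC -2.09, adjusted p = 0.0017). At both loci the order of the palms at ripe was the reverse of that at PR. ACC oxidase LOC105035107, not called at PR, was lower in NSd at ripe, with 31.51, 9.216 and 19.87 RPKM in ripe NSd, against 118.8, 222.4 and 178 RPKM in ripe Sd (log2 FC -3.14, adjusted p = 0.0034). Its palm difference at PR minus that at ripe was called (log2 value 4.83, adjusted p = 0.000651).

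Glutamate decarboxylase LOC105041902, which makes the stress metabolite GABA, had 448.5, 545.6 and 583.1 RPKM in PR NSd, against 148.8, 148.8 and 188.2 RPKM in PR Sd (log2 FC 1.69). At ripe it had 116.4, 109.3 and 123.1 RPKM in NSd, against 220.2, 229.4 and 231.7 RPKM in Sd (log2 FC -0.96). The putative glucuronosyltransferase PGSIP8 LOC105059517 behaved alike, with log2 FC of 2.34 at PR and -0.80 at ripe. The groups were apart at both stages at these loci, in opposite order. Opposite direction at ripe was a rule for picking loci, so at glutamate decarboxylase, and at VIP1 below, it was set by the choice. With ripe log2 FC above -1, neither glutamate decarboxylase nor PGSIP8 was called at ripe.

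Among lower loci, the transcription factor VIP1 LOC105038330 had 18.1, 17.98 and 17.39 RPKM in PR NSd, against 72.91, 61.71 and 51.51 RPKM in PR Sd (log2 FC -1.73), and 45.57 to 53.65 RPKM in ripe NSd, against 32.43 to 34.77 RPKM in ripe Sd. The small secreted gibberellin-regulated protein 12 LOC105046106 had 0.088, 0.3157 and 0.0862 RPKM in PR NSd, against 23.68, 20.15 and 20.51 RPKM in PR Sd (log2 FC -4.27). It stood at 14.94 to 30.53 RPKM in ripe NSd, against 12.51 to 17.48 RPKM in ripe Sd, so that the ripe groups overlapped. MADS32 LOC105041020, at 21.32 to 23.35 RPKM in ripe NSd, against 10.16 to 18.67 RPKM in ripe Sd, was likewise low only in the PR NSd libraries among the 12.

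Heat shock loci, by contrast, were not reversed at ripe, where 1 was higher and 1 lower and the median log2 FC was 0.15. For the 39 photosynthesis loci the ripe median was 0.06, with 1 locus called lower. Their palm difference was more negative at PR than at ripe at 10 loci by the interaction test, and 12 heat shock loci had a more positive one at PR.

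**Figure D4:**
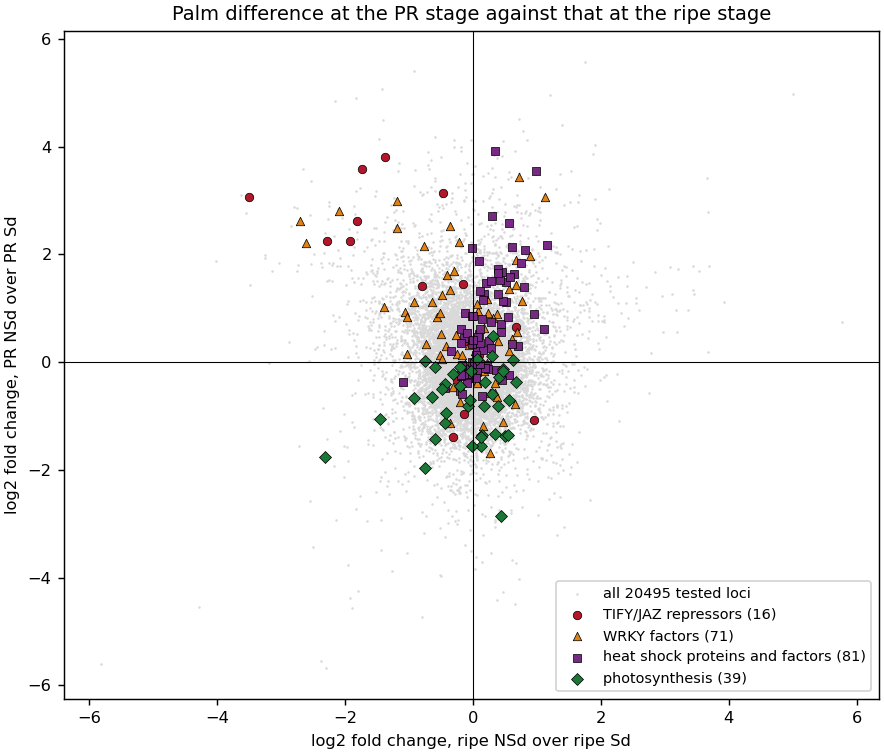
Log2 fold change of NSd over Sd at the PR stage (y axis) against that at the ripe stage (x axis) for all 20495 tested loci (grey) and the members of 4 gene lists. TIFY/JAZ repressors (circles) gather above and left of the centre, with medians of 1.43 at PR and -0.39 at ripe, and heat shock loci (squares) lie above it with medians of 0.46 and 0.15.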

How the data were processed

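The authors trimmed single reads with bcl2fastq 2.20.0.422, aligned them with BWA-MEM to the E. guineensis transcriptome, took read numbers from SAMtools, summed them over a locus's transcripts and deposited RPKM values in 1 file per library. Mapping across species, and between similar copies, can lower or split the reads of a locus. Each file held 1 row with no locus name, which was left out. RPKM was divided by the library's median ratio over 15658 loci with at least 1 RPKM in every library, and log2(rescaled RPKM + 1) of all 12 libraries entered a limma 3.58.1 model (under R 4.3.3) of the 4 group means, with a trend of variance on level. This scale understates the change of low loci. P-values were adjusted by Benjamini-Hochberg over 20495 loci. Total reads were recovered from the steps between low RPKM values. The pipeline was tested on simulated data. Python 3.11.15, numpy 2.4.6, pandas 2.3.3 and matplotlib 3.10.9 were used.

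The comparison, the gene lists (patterns on locus descriptions, corrected after the descriptions were read) and the rules were chosen with earlier results of these data known. Named loci are, at PR, the 12 highest and 12 lowest called log2 FC without overlap at 20 RPKM or more, the 6 largest differences in RPKM each way, up to 3 called members of each list by p, the 5 interaction loci of each sign with opposite direction at ripe, and the most abundant members of the ethylene, jasmonate, polygalacturonase and XTH lists. The text describes a selection of them. Alternatives were other scalings, filters, pseudocount, thresholds, variance models, fits and libraries left out. No sequence was printed because no reference was used here.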

Additional observations from a re-analysis of the deposited data

Results flagged for a closer look

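Some palm differences at PR differed from those at ripe by the interaction test of limma on log2(rescaled RPKM + 1), at adjusted p under 0.01. Over all tested loci 2286 did so (11.2%), as did 64.3% of the loci called at PR. The interaction contains the PR difference, so the second share is not independent of the PR calls. Of the 94 loci named in the text, 78 were among the 2286. At 56 the fold changes had opposite signs at PR and ripe, called at ripe or not. Some loci were named for this very result and others for a large or clear PR difference, so these counts follow from the choice. The values below are the log2 FC of NSd over Sd at PR minus that at ripe, and their causes were not tested.

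In jasmonate loci the difference was 4.18 at TIFY 10a LOC105058608, 4.44 at LOC105053062, 2.22 at LOC105056702, 5.19 at TIFY 9, -1.08 at TIFY 4B, 2.05 at allene oxide synthase 1, 1.47 at 12-oxophytodienoate reductase 7 and -2.61 at linoleate 13S-lipoxygenase. In ethylene loci it was 1.18 at ACC synthase-like, -3.69 at ACC oxidase LOC105061033, 4.83 at ACC oxidase LOC105035107, 2.42 at EIN3-binding F-box protein 1 LOC105033977 and 2.59 at LOC105033979. In regulators it was 4.89 at WRKY76, 2.71 at WRKY24, 2.48 at NAC 48, -3.35 at NAC 104, 7.00 at ERF019, 1.88 at ERF017, 2.19 at MYB4, -2.29 at VIP1, -4.75 at MADS32, -2.48 at MADS21, -1.76 at WUSCHEL-related homeobox 8, -2.61 at HOX21 and 3.24 at ORR22. In calcium, ubiquitin and kinase loci it was 3.47 at CML19, 3.90 at CP1, 6.49 at PUB23 and -1.82 at CIPK1.

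Stress, defence and some other loci had 3.57 at the small heat shock protein, 2.42 at heat shock protein 83, 3.52 at multiprotein-bridging factor 1c, 5.89 at chitinase 2-like, 5.62 at chitinase 2, 3.91 at the chitin elicitor-binding protein, 2.19 at the cysteine-rich transmembrane protein, 2.08 at glycine-rich protein A3, 2.60 at abscisic stress-ripening protein 5, 2.60 at dehydrin DHN1, 2.06 at the SUI1 homolog, 2.65 at glutamate decarboxylase, 2.62 at the cytokinin-releasing enzyme, -1.94 at the metallothionein, 3.14 at glutaredoxin-C1 and -3.68 at glutathione S-transferase F12. Wall loci had 3.76 at XTH protein 1, 2.82 at polygalacturonase LOC105039892, -1.35 at LOC105059528, -1.75 at LOC105043311, -4.48 at expansin-B5, -3.48 at endoglucanase 10, -3.38 at glycine-rich protein 1, -2.44 at early nodulin-75 LOC105059233, -2.45 at LOC105059232, -2.42 at the cellulose synthase, -3.30 at fasciclin-like protein 2 and 3.14 at PGSIP8. Transport, metabolism and the remaining loci had -3.30 at photosystem I subunit IV A, -1.51 at CP29.2, -2.86 at PIP1-2, -2.96 at NIP6-1, -3.47 at boron transporter 2, -5.16 at the invertase, -3.40 at SWEET13, -3.03 at alpha-glucan phosphorylase, -3.74 at the stearoyl-ACP desaturase, -3.59 at acyl carrier protein 2, -4.80 at oleosin, 1.96 at diacylglycerol O-acyltransferase 3, -2.03 at chalcone-flavonone isomerase, -2.07 at tubulin LOC105060088, -4.52 at LOC105061039, -4.74 at gibberellin-regulated protein 12, 4.76 at ammonium transporter 2 member 1, 3.17 at YPQ1, 1.29 at the cinnamyl alcohol dehydrogenase and 2.50 at SAUR32.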

How the results depend on the processing

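The number of loci called between the palms at PR stayed within 1.5 times of 2120 under the other scalings, filters, pseudocount, variance models and fits tried (1800 to 2856), and was 1735 to 2281 with 1 library left out. Only the thresholds moved it further, to 8259 loci at an adjusted p under 0.05 and any fold change (3917 higher, 4342 lower) and to 296 when tested against a fold change of 2 (146 higher, 150 lower). The split moved with the scale. Beside 1176 higher and 944 lower, it was 689 and 1953 with RPKM as deposited, 804 and 1534 when scaled by the summed RPKM of non-rRNA loci, and 1331 and 1525 with a pseudocount of 0.1. The median log2 FC over all loci was -0.350 as deposited, -0.245 by the non-rRNA sum and -0.051 after quantile normalization. The interaction gave 1705 to 2477 loci with 1 library left out, and 2049 to 2719 under the other alternatives, with 835 positive and 1884 negative as deposited. Loci called in the same direction at both stages numbered 58 to 126 with 1 library left out (62 without ripe NSd replicate 2 or ripe Sd replicate 2) and 83 to 123 otherwise, and as deposited 26 were higher and 73 lower.

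Of 86 called loci named in the text, 0 changed sign and 5 lost the call under at least 1 of the alternatives run. These loci were mostly picked for large or clear differences in the same data, so their stability does not stand for all calls. Of all 2120 calls, 1633 were also made with RPKM as deposited, 1655 without PR NSd replicate 2 and 1673 without PR Sd replicate 1. Members called over all gene lists numbered 587, and 672 with RPKM as deposited. Chosen after seeing the data, leaving out PR NSd replicate 1 gave 563 and leaving out PR Sd replicate 3 gave 611. No paired analysis was possible because the labels give no replicate numbers, and the numbers used here only name the libraries of a group and tie none of them across groups. Loci near 1 RPKM rest on few reads, and samples came from 1 bunch each.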

Other observations

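Auxin loci moved both ways, at 9 of 94 higher and 13 lower in PR NSd. SAUR32 LOC109505080, a member of a family quickly induced by auxin, had 353.1, 569.7 and 279.7 RPKM in PR NSd, against 41.42, 46.36 and 18.92 RPKM in PR Sd (log2 FC 3.49 ± 0.34 SE, limma adjusted p = 2.44e-05). The repressor IAA17 LOC105040857 had 97.97, 87.74 and 101.2 RPKM in PR NSd, against 279.6, 218.6 and 252.2 RPKM in PR Sd (log2 FC -1.37). Lignin and phenylpropanoid enzymes were higher at 9 of 60 loci (15%) and lower at 5, and at 7 each with RPKM as deposited, with a cinnamyl alcohol dehydrogenase LOC105052938, which makes lignin precursors, at 257.5, 241.2 and 301.6 RPKM in PR NSd, against 83.35, 85.39 and 69.27 RPKM in PR Sd (log2 FC 1.74).

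Glutathione S-transferases and glutaredoxins, redox enzymes, were higher at 9 of 54 loci (16.7%) and lower at 8 (14.8%). Glutaredoxin-C1 LOC105051031 had 9.058, 13.94 and 9.521 RPKM in PR NSd, against 0.3868, 0.5141 and 0.4599 RPKM in PR Sd (log2 FC 3.00). Glutathione S-transferase F12 LOC105058893 had 1.942, 1.083 and 0.8228 RPKM in PR NSd, against 28.49, 20.34 and 32.21 RPKM in PR Sd (log2 FC -3.62). Ammonium transporter 2 member 1 LOC105045862 had 13.77, 25.57 and 23.74 RPKM in PR NSd, against 1.356, 1.732 and 2.626 RPKM in PR Sd (log2 FC 2.90), and the vacuolar amino acid transporter YPQ1 LOC105055832 had 24.17, 26.63 and 23.33 RPKM in PR NSd, against 2.675, 2.17 and 1.487 RPKM in PR Sd (log2 FC 3.06). At each of these named loci the 2 groups were apart.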
